A study of Mus musculus with 12 samples.

Results

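The organic ion and monocarboxylate carriers are 60 of the 18193 genes with a probe set of their own on the array. They were chosen by name, as the genes whose symbol starts with Slc10a (5 genes), Slc13a (5), Slc16a (13), Slc22a (21), Slc47a (1) or Slco (15). For each gene the probe set with the highest mean over the 12 arrays was read; 29 of the 60 genes had more than 1 probe set. The tissue was mouse yolk sac, the membrane that feeds the early embryo and makes its first blood. Wild type embryos and Z/Norrin embryos (called Norrin here) gave 3 arrays each at 2 stages, embryonic day 8.5 (E8.5) and day 10.5 (E10.5), which makes 4 groups. In the Norrin groups a conditional over-expression allele made Norrin, a secreted ligand of the receptor Frizzled4, outside its usual place. All 4 groups had a mixed C57Bl6/129 background, and each array read a pool of yolk sacs from 3 to 5 embryos of mixed gender. The Cre driver and the time of its action are not given in the sources used here.

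Cells need carriers for charged metabolites, because such molecules cross a lipid membrane poorly. Slc16a proteins move lactate, pyruvate and other monocarboxylates, Slc22a and Slc47a proteins move organic anions and cations and carnitine, Slc13a proteins move dicarboxylates, citrate and sulfate, and Slc10a and Slco proteins move bile acids, steroid conjugates, prostaglandins and thyroid hormone. Many are best known from the kidney tubule and the liver, and the visceral endoderm of the yolk sac is an absorptive epithelium that shares many genes with both.

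Values are RMA log2 levels, so a difference of 1 is a 2-fold change. The median array value was 6.59 to 6.73 at E8.5 and 6.97 to 7.01 at E10.5, and arrays of 1 group correlated at r = 0.975 to 0.991 over probe sets. A floor was set for each stage at the percentile 95 of the group means of 70 odorant and vomeronasal receptor genes, taken as not transcribed here. The floor was 7.02 in the earlier and 7.14 in the later stage. The labelled tissue was borne out by 15 visceral endoderm markers, of which 0 lay at the floor in any group. The Norrin E10.5 replicate 2 stood apart: the trophoblast genes Tpbpa and Ctsq read 11.90 and 9.67 there, against 5.63 to 6.55 and 5.69 to 6.19 in the other E10.5 arrays. The 6 members called at E10.5 are therefore also given without it, as are other members and lists where stated. In bulk tissue, fewer cells of a type and less RNA per cell cannot be told apart.

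Of the 60 carriers, 34 lay above the floor in a group at E8.5 and 35 at E10.5, and 21 lay at or under it in all 4 groups. Of all 18193 genes, 10784 lay above it at E8.5, 11470 at E10.5, and 6429 at or under it in all 4 groups. Those 21 include the bile acid carriers Slc10a1 and Slc10a2, the sulfate carrier Slc13a1, 9 of the 21 Slc22a genes (Slc22a4, Slc22a7, Slc22a13, Slc22a19, Slc22a21, Slc22a22, Slc22a27, Slc22a29 and Slc22a30) and 7 of the 15 Slco genes (Slco1a5, Slco1a6, Slco1b2, Slco1c1, Slco6b1, Slco6c1 and Slco6d1). The others were Slc16a5 and Slc16a14.

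**Figure D1:**
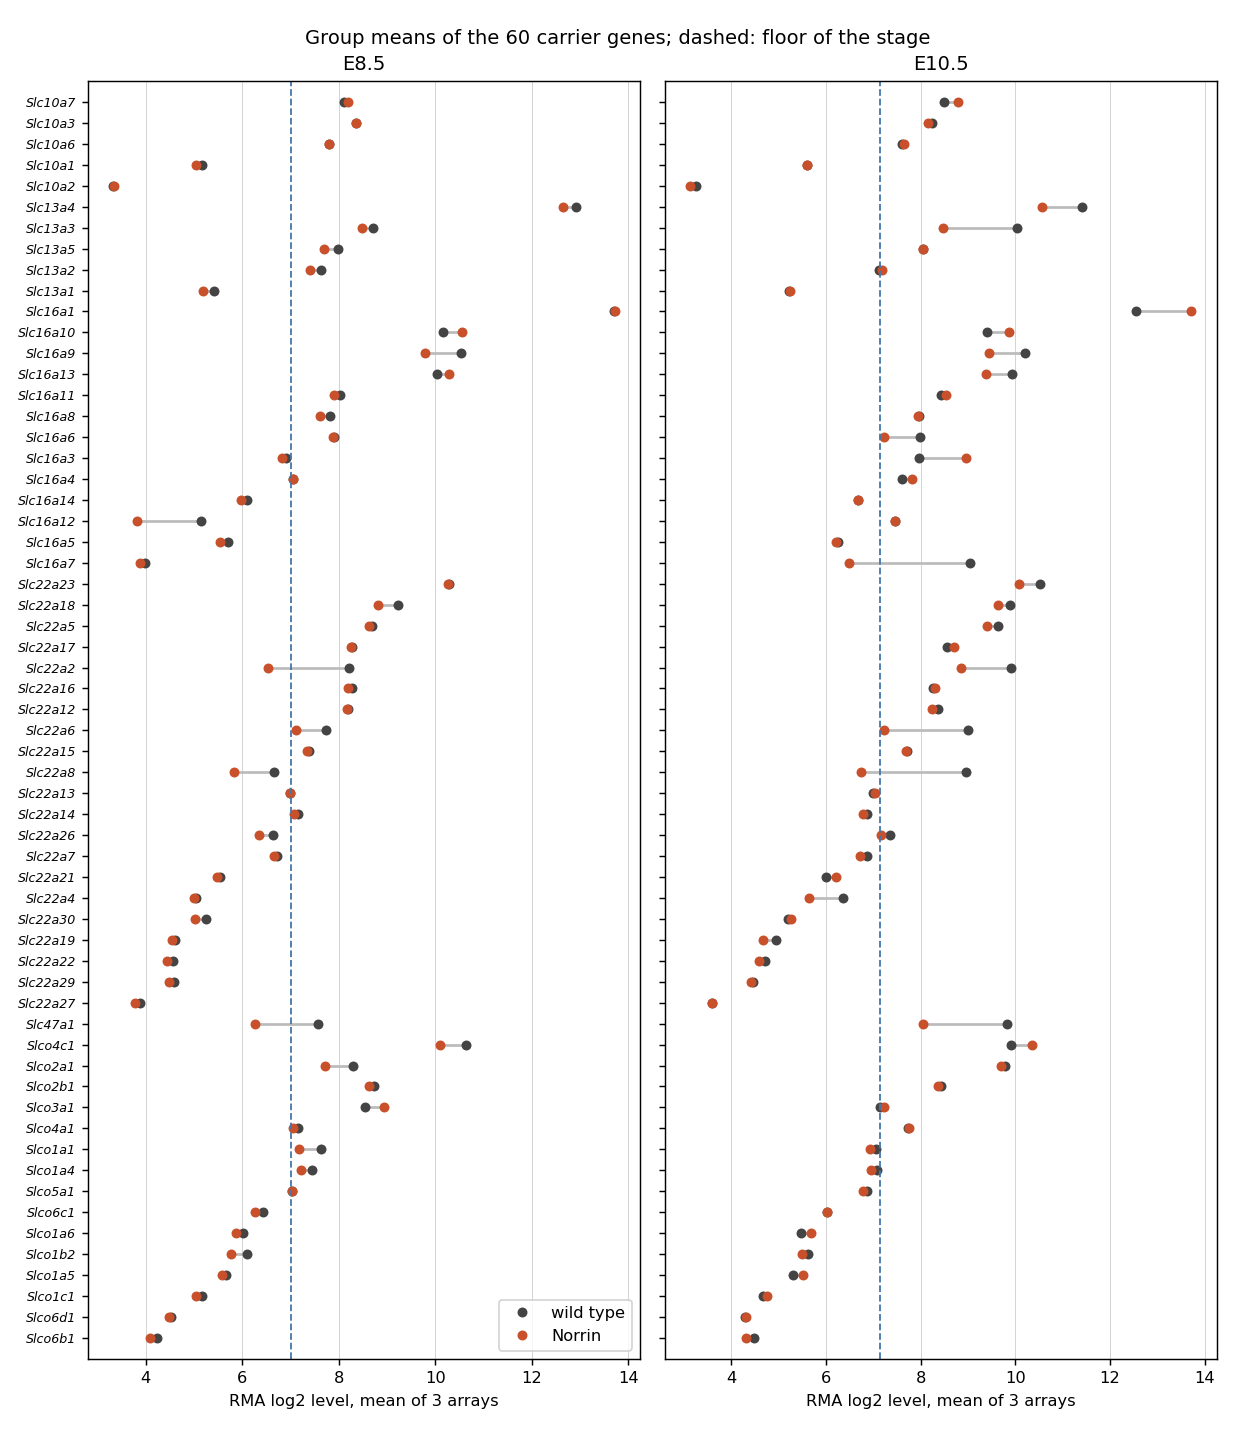
Group means (3 arrays) of the 60 carrier genes as RMA log2 levels, E8.5 on the left and E10.5 on the right, with wild type and Norrin marked apart and the floor of each stage as a dashed line (7.02 and 7.14). At E10.5 Slc16a7, Slc22a8, Slc22a6 and Slc47a1 have the widest gaps between readings of the genotypes; levels of different probe sets cannot be ranked against each other.

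Promoter windows are shown for the called members that the RefSeq promoter table holds, since 3 of them, Slc22a6, Slc22a8 and Slc22a2, fell at E10.5 and Slc16a1 rose. Each is the 250 bases before a transcript start in that table, 5′ to 3′ on the gene's strand (build GRCm38.p6, all on the plus strand): chr19:8617746-8617995 for Slc22a6, chr19:8592932-8593181 for Slc22a8, chr17:12583939-12584188 for Slc22a2 and chr3:104638414-104638663 for Slc16a1. The Slc22a8 window precedes a start that lies inside the gene's span, and the other windows end where their gene begins. Capitals mark a match to 1 of 5 short motifs searched on both strands.
Slc22a6: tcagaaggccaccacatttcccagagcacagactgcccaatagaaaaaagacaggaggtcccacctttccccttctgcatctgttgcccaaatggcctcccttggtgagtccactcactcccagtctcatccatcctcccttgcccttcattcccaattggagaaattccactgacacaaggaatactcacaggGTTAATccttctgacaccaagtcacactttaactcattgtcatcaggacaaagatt
Slc22a8: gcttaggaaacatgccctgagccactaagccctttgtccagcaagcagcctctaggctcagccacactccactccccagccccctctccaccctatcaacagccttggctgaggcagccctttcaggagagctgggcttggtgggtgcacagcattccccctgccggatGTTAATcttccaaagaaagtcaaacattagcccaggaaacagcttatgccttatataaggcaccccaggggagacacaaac
Slc22a2: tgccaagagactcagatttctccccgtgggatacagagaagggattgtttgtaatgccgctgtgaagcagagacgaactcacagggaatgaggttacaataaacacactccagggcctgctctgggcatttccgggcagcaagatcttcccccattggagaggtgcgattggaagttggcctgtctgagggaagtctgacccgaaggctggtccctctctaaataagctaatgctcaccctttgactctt
Slc16a1: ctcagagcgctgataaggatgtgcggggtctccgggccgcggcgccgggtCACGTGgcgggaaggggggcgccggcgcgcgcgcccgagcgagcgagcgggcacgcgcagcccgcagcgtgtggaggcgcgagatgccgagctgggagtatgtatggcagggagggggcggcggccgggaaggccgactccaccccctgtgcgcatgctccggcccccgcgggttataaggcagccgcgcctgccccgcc

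The motif of the liver and kidney factor HNF1 was searched as GTTAAT. Slc22a6 and Slc22a8 both held it, beginning at -56 and -81 from the start. The hypoxia element was searched as ACGTG, which overlaps itself on both strands in the capitals of the Slc16a1 window. Also searched were the site of HNF4, spelled CAAAGTCCA, the site of the beta-catenin partners TCF and LEF, spelled ATCAAAG, and the site of the blood factors of the GATA family, spelled AGATAA. The Slc22a2 window held none of the 5. Of the 60 genes, 49 had a window, some more than 1, giving 56. The HNF1 motif was in 6 of these (10.7%, against 6.43% of all 32851 windows), the hypoxia element in 8 (14.3%, against 16.57%), the GATA site in 4 (7.1%, against 9.99%), the TCF/LEF site in 2 (3.6%, against 3.21%) and the HNF4 site in 0 (against 0.38%). A match is only a description of these letters, and no binding was measured.

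At E10.5 4 carriers of organic anions and cations and 1 monocarboxylate carrier were lower in Norrin than in wild type, and another monocarboxylate carrier was higher. Slc22a6, Slc22a8, Slc22a2, Slc47a1 and the monocarboxylate carrier Slc16a7 fell, and Slc16a1 rose 2.24-fold. The falls were 2.09-fold for Slc22a2, 3.42-fold for Slc47a1 and 3.44-fold for Slc22a6. Slc22a8 and Slc16a7 lay under the floor in Norrin, so their falls are bounds, at least 3.55-fold and 3.77-fold, taken from the wild type mean to the floor. Both bounds hold for the E10.5 floor of 7.14 and would be smaller with a higher floor. By limma with Benjamini-Hochberg adjustment over all genes (threshold 0.05), 6 of the 60 members were called, against 4.07% of all genes. Of these, 5 were lower (2.22% of all genes were) and 1 higher (1.85%). The groups did not overlap for 18 members, 13 lower and 5 higher, where 22.9% of all genes had this (11.5% lower, 11.4% higher). At an unadjusted p under 0.05 were 13 lower and 3 higher, where 14.0% of all genes were (7.27% lower, 6.77% higher). Of the 60 effects 37 were below 0, against 51.0% of all genes. The median Norrin effect over the 60 was -0.05, and -0.00 over all genes.

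Replicate numbers were taken to pair the samples within a stage, as judged from these same arrays and not from the labels. Results with the block rest on that assumption. With the number as a block, 14 members were called at E10.5, 11 lower and 3 higher, where 13.2% of all genes were (6.8% lower, 6.39% higher). All 6 called members held their call in each of 6 fits with 1 array left out and in each of 9 other settings.

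**Figure D2:**
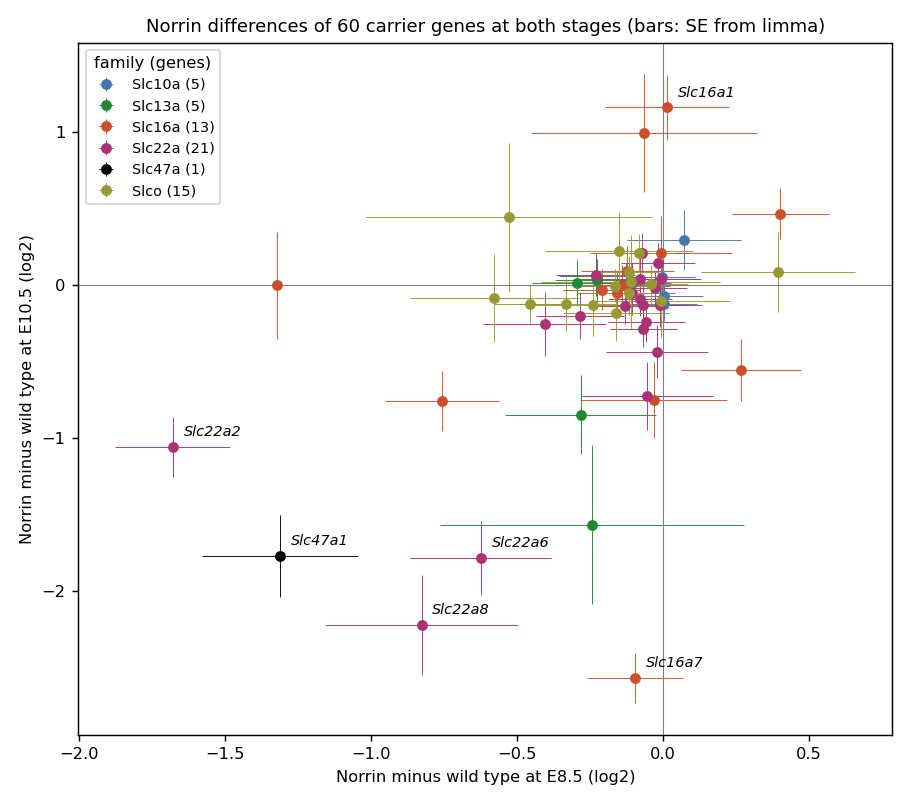
Norrin minus wild type log2 difference at E8.5 (x axis) against that at E10.5 (y axis) for the 60 carriers, coloured by family, with standard errors from limma. Slc16a7 lies far below 0 at E10.5 and near 0 at E8.5, while Slc22a2 and Slc47a1 lie below 0 at both stages and Slc16a1 lies above 0 at E10.5.

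Slc22a6 (Oat1) and Slc22a8 (Oat3) are exchangers that take organic anions into the cell in return for a dicarboxylate. They are neighbours on chromosome 19, Slc22a8 at 8591254 to 8611835 and Slc22a6 at 8617996 to 8628299, 6.2 kb apart. Slc22a6 read 9.16, 9.08 and 8.79 in the wild type pools at E10.5 and 7.52, 6.88 and 7.27 in the Norrin pools. All 3 Norrin pools lay below all 3 wild type pools, near the floor of 7.14. The gene fell by 1.78 on the log2 scale (3.44-fold, SE 0.24, adjusted p = 0.00193), and it fell by 1.61 without Norrin replicate 2. A second probe set of Slc22a6 gave -0.9995 (adjusted p = 0.00234), with both means, 6.14 and 5.14, under the floor.

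Slc22a8 read 9.20, 8.92 and 8.77 in wild type and 6.44, 6.93 and 6.85 in Norrin at E10.5. The Norrin mean of 6.74 lay under the floor, so the level there cannot be told from background. The readings differed by -2.22 (SE 0.33, adjusted p = 0.00308), and against the floor the fall was at least 3.55-fold. The difference was -2.32 without Norrin replicate 2. A second probe set, with means of 6.80 and 6.45, gave -0.35 (adjusted p = 0.408).

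At E8.5 neither gene was called. Slc22a6 read 7.56, 7.51 and 8.13 in wild type and 6.76, 6.95 and 7.61 in Norrin, and the groups overlapped. Its effect was -0.62 (adjusted p = 0.65), and with the block the E10.5 effect of Slc22a6 differed from that at E8.5 by -1.16 (adjusted p = 0.0215; 0.339 without the block). Slc22a8 read 6.21, 6.10 and 7.64 against 5.56, 5.84 and 6.07, with an effect of -0.83 (adjusted p = 0.661), and both means lay under the floor. The effects of Slc22a8 at the stages differed by -1.40 (adjusted p = 0.431, and 0.0762 with the block).

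Slc13a3 (NaDC3) brings dicarboxylates into the cell with sodium, and so supplies the exchange partner of both anion carriers. Slc13a3 read 9.60, 10.57 and 9.96 in wild type and 7.77, 9.08 and 8.57 in Norrin at E10.5, and the groups did not overlap. Its effect was -1.57 (SE 0.52), with an adjusted p of 0.146, and of 0.00598 with the block. Without Norrin replicate 2 it was -1.87 (adjusted p = 0.12). Another of its 4 probe sets gave -1.68 (adjusted p = 0.00278); the remaining ones, both under the floor, gave -0.35 and -0.10. At E8.5 the wild type pools spread from 7.37 to 9.40 and the effect was -0.24 (adjusted p = 0.922).

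The cation carriers are Slc22a2 (Oct2), which admits organic cations, and Slc47a1 (Mate1), which exports them in exchange for protons. Slc22a2 lies on chromosome 17 at 12584189 to 12628489 and Slc47a1 on chromosome 11 at 61343400 to 61378842. Slc22a2 read 10.20, 9.63 and 9.92 in wild type and 8.69, 8.96 and 8.92 in Norrin at E10.5. It fell by 1.06 (2.09-fold, SE 0.20, adjusted p = 0.00989), and it fell by 1.11 without Norrin replicate 2. Slc47a1 read 9.94, 10.13 and 9.40 in wild type and 7.73, 8.31 and 8.11 in Norrin, with no overlap. It fell by 1.77 (3.42-fold, SE 0.27, adjusted p = 0.00321), and it fell by 1.90 without Norrin replicate 2.

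Slc22a2 was the single member called at E8.5, where 0.077% of all genes were (0.022% lower, 0.055% higher). Its 3 wild type pools read 8.17, 7.91 and 8.56, and its 3 Norrin pools 6.35, 6.43 and 6.84, all under the floor of 7.02. The readings differed by -1.68 (SE 0.20, adjusted p = 0.00812), and against the floor the fall was at least 2.30-fold. The call was lost without wild type E8.5 replicate 1 (adjusted p = 0.0523), without Norrin E8.5 replicate 2 (0.0852), and with the 6 E8.5 arrays fitted alone (0.124). Slc47a1 read 7.68, 6.96 and 8.08 in wild type and 6.32, 6.08 and 6.39 in Norrin, and these 3 Norrin pools and wild type replicate 2 lay under the floor. The difference of its readings was -1.31 (SE 0.27, adjusted p = 0.139), and it passed with the block (adjusted p = 0.0192), which made 2 members called both lower, where 1.41% of all genes were (0.61% lower, 0.803% higher), and without wild type E8.5 replicate 2 (effect -1.62, adjusted p = 0.0445).

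**Figure D3:**
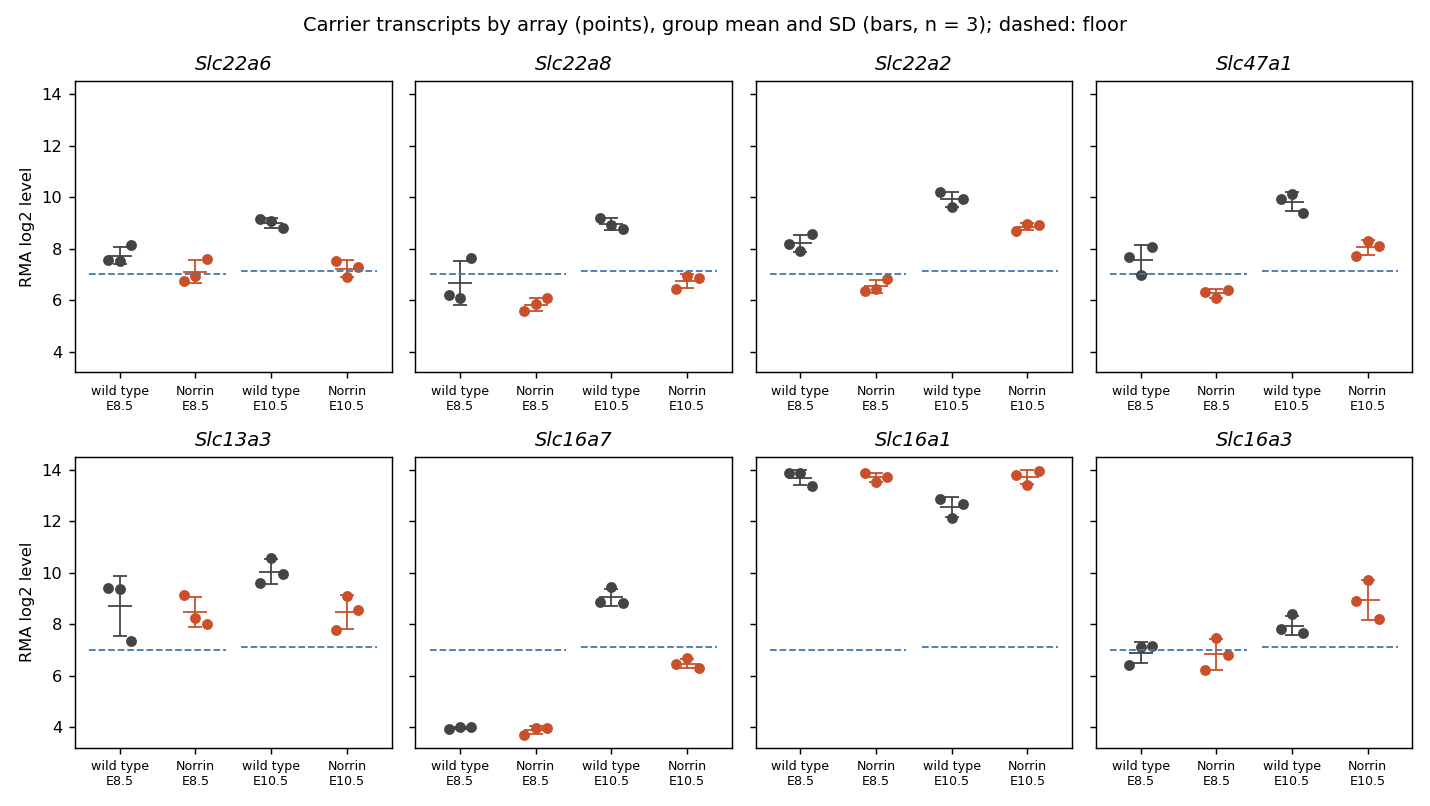
RMA log2 level of 8 carriers on each array (points) by group, with the mean and SD of 3 arrays and the floor dashed. In Slc22a6, Slc22a8, Slc22a2, Slc47a1, Slc13a3 and Slc16a7 the wild type E10.5 pools lie above all Norrin E10.5 pools, in Slc16a1 below them, and in Slc16a3 the groups overlap.

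Slc16a7 (Mct2) is a high-affinity carrier of lactate, pyruvate and ketone bodies, on chromosome 10 at 125219270 to 125389586. It lay at the floor at E8.5, with 3.94, 4.003 and 4.03 in wild type and 3.72, 3.97 and 3.99 in Norrin. At E10.5 wild type read 8.87, 9.44 and 8.85 and Norrin 6.45, 6.68 and 6.31. The groups lay far apart, with the Norrin mean of 6.48 under the floor of 7.14. The readings differed by -2.57 (SE 0.16, adjusted p = 1.21e-05), and against the floor the fall was at least 3.77-fold. The difference was -2.67 without Norrin replicate 2. The effect at E10.5 was lower than that at E8.5 by 2.48 (SE 0.23, adjusted p = 0.00145). It was the single member called in this test, where 0.0934% of all genes were (0.055% with a lower effect at E10.5, 0.0385% with a higher). With the block 4 members were called, where 2.07% of all genes were: Slc16a7, Slc22a6 and Slc16a13 with a lower effect (1.25% of all genes) and Slc16a1 with a higher one (0.819%).

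Slc16a1 (Mct1) carries lactate in either direction and is the most widely expressed of the family. It read 12.86, 12.14 and 12.68 in wild type and 13.80, 13.42 and 13.96 in Norrin at E10.5. It rose by 1.16 (2.24-fold, SE 0.21, adjusted p = 0.0088), and by 1.32 without Norrin replicate 2. At E8.5 the genotypes overlapped, with 13.87, 13.87 and 13.36 in wild type and 13.90, 13.53 and 13.71 in Norrin, and an effect of 0.01. The change in effect between stages was 1.15 (adjusted p = 0.249, and 0.0222 with the block). A second probe set gave 1.29 at E10.5 (adjusted p = 0.109), with the wild type mean of 6.15 under the floor.

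Slc16a3 (Mct4) exports lactate from glycolytic cells. It read 7.81, 8.39 and 7.68 in wild type and 8.92, 9.73 and 8.20 in Norrin at E10.5, with overlap between the groups. Its effect was 1.00 (adjusted p = 0.239, and 0.00684 with the block), and 0.60 without Norrin replicate 2 (adjusted p = 0.602). These carriers need a partner glycoprotein to reach the membrane: basigin (Bsg) for Slc16a1 and Slc16a3, and embigin (Emb) for Slc16a7.

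Emb read 12.42, 9.59 and 11.82 in wild type and 14.09, 12.81 and 13.83 in Norrin at E10.5. It rose by 2.30 (SE 0.56, adjusted p = 0.0390), and the call was lost in 3 of 6 fits with 1 array left out: without wild type replicate 3, Norrin replicate 1 or Norrin replicate 3. Bsg read 12.31, 12.29 and 12.19 in wild type and 12.78, 13.04 and 12.34 in Norrin, with an effect of 0.46 (adjusted p = 0.364, and 0.0316 with the block). Of the 6 accessory proteins measured, 1 rose and 0 fell at E10.5, also without Norrin replicate 2. Of the 10 genes of lactate and pyruvate use, limma called 0 (3 at an unadjusted p under 0.05), 3 with the block and 2 without Norrin replicate 2. Of all genes limma called 4.07% (14.0% at an unadjusted p under 0.05), 13.2% with the block and 3.19% without that array.

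The effects of the other named Slc16a members were smaller. Slc16a9 (Mct9), a carrier of carnitine and creatine, read 10.36, 10.005 and 10.23 in wild type and 9.11, 9.83 and 9.37 in Norrin at E10.5, with no overlap. Its effect was -0.76 at both stages. At E10.5 the adjusted p was 0.0508 (0.0225 with the block, 0.0172 without Norrin replicate 2). At E8.5 it read 10.71, 10.43 and 10.47 against 10.06, 9.48 and 9.79, with an adjusted p of 0.335. The other 2 probe sets of Slc16a9 gave -0.93 (adjusted p = 0.0231) and -0.70 (0.248) at E10.5.

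Slc16a10 (Tat1), which carries aromatic amino acids, read 9.51, 9.18 and 9.51 in wild type and 9.94, 9.59 and 10.06 in Norrin at E10.5. The groups did not overlap, and the effect was 0.47 (adjusted p = 0.181, and 0.036 with the block), and 0.61 without Norrin replicate 2 (0.0954). Slc16a6 read 8.29, 7.77 and 7.88 against 7.26, 7.53 and 6.89, an effect of -0.75 (adjusted p = 0.148, and 0.0185 with the block), and of -0.90 without Norrin replicate 2 (0.12). Slc16a13 read 10.31, 9.72 and 9.75 against 9.78, 9.04 and 9.30 with overlap, an effect of -0.56 (adjusted p = 0.202, and 0.00684 with the block), and of -0.39 without Norrin replicate 2 (0.516). Slc16a11, whose gene ends 374 bases from Slc16a13, had an effect of 0.09 (adjusted p = 0.924).

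Carnitine carriers bring in the cofactor that takes fatty acids into mitochondria. Slc22a5 (Octn2) read 9.83, 9.39 and 9.70 in wild type and 9.35, 9.53 and 9.32 in Norrin at E10.5, with overlap and an effect of -0.24 (adjusted p = 0.495). Its relative Slc22a4 (Octn1) had an effect of -0.72 (adjusted p = 0.113, and 0.0337 with the block) but lay under the floor in all groups. Of the 7 carnitine genes measured, 2 fell and 0 rose at E10.5, where 2.22% of all genes fell. Their median effect was -0.68 against -0.00 over all genes, and 6 were called lower with the block (6.8% of all genes). Without Norrin replicate 2 the count was also 2 (1.75% of all genes fell), with a median of -0.66. Bbox1, the last enzyme of carnitine synthesis, went from 8.57 ± 0.59 (SD, n = 3) to 6.81 ± 0.07 (-1.76, adjusted p = 0.0014), which is under the floor, so the fall was at least 2.71-fold. Cpt2, which releases fatty acids from carnitine inside mitochondria, went from 11.61 ± 0.07 to 10.57 ± 0.16 (-1.04, adjusted p = 0.000735).

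Slc13a4 carries sulfate. It read 12.05, 10.73 and 11.46 in wild type and 10.69, 10.38 and 10.62 in Norrin at E10.5, and the groups did not overlap. The effect was -0.85 (adjusted p = 0.105, and 0.0133 with the block), and -0.76 without Norrin replicate 2 (0.262). The citrate carrier Slc13a5 and the dicarboxylate carrier Slc13a2 had effects of 0.01 and 0.06. Of the 8 genes of citrate and sulfate use, 1 was called higher and 1 lower, as also without Norrin replicate 2. Of all genes limma called 1.85% higher and 2.22% lower. Papss1, which activates sulfate, rose by 0.74 (adjusted p = 0.00652), and the sulfate exchanger Slc26a1 was called lower (adjusted p = 0.000832). The Slc26a1 means of 7.14 in wild type and 5.85 in Norrin were both at or under the floor, so the difference is between background-level readings.

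Of the remaining named Slc22a members 0 were called by limma at E10.5. Slc22a23, whose substrate is unsettled, read 10.79, 10.33 and 10.45 against 10.08, 10.21 and 9.97, with no overlap (effect -0.44, adjusted p = 0.263, 0.0549 with the block, and 0.291 without Norrin replicate 2). Slc22a18, an imprinted gene, read 10.06, 9.89 and 9.71 against 9.76, 9.73 and 9.41 (effect -0.25, adjusted p = 0.741). Slc22a17, a receptor for lipocalin, had an effect of 0.15 (adjusted p = 0.766).

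The Slc10a genes showed no call in either Norrin contrast: Slc10a3, Slc10a6 and Slc10a7 had effects of -0.07, 0.05 and 0.29 at E10.5. Nor did the 15 Slco genes. The prostaglandin carrier Slco2a1 read 9.82, 10.10 and 9.45 in wild type and 9.40, 10.36 and 9.35 in Norrin at E10.5 (effect -0.09). The effects of Slco4c1, Slco3a1 and Slco2b1 were 0.44, 0.09 and -0.05, with adjusted p of 0.850, 0.969 and 0.962. Slco1a1 at E8.5 read 7.39, 7.80 and 7.70 in wild type and 7.20, 7.11 and 7.21 in Norrin, an effect of -0.45 (adjusted p = 0.378).

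For Slco1b2, the liver uptake carrier, the probe set that the rule chose was flat and under the floor (-0.13 at E10.5). Of the 4 other probe sets, those with wild type E10.5 means of 6.62 and 6.57 had Norrin means of 4.91 and 4.92 (adjusted p = 0.117 and 0.198 with each probe set fitted on its own). Another read 5.30 in wild type and 4.45 in Norrin (adjusted p = 0.0726), and the last was flat, at 5.30 and 5.28. All of these lay under the floor of 7.14. Among 14 genes of bile acid and bilirubin handling, limma called 0 at E10.5 (5 at an unadjusted p under 0.05, 2 higher and 4 lower with the block, and 0 without Norrin replicate 2). Of 9 thyroid hormone genes it also called 0 (1 at an unadjusted p under 0.05, 1 with the block, 0 without Norrin replicate 2). Of all genes it called 4.07% (14.0% at an unadjusted p under 0.05, 13.2% with the block, 3.19% without that array).

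Of 10 regulators of such carriers measured, 2 fell at E10.5 and 0 rose, and 4 fell with the block and 1 without Norrin replicate 2. Over all genes 2.22% fell, 6.8% with the block and 1.75% without that array. Nr1h4, the bile acid receptor FXR, went from 8.49 ± 0.21 to 6.47 ± 0.43 (SD, n = 3; -2.02, adjusted p = 0.000633), which is under the floor, so the fall was at least 2.55-fold. Without Norrin replicate 2 the difference was -2.26 (adjusted p = 0.000254). Hnf4a, a transcription factor of liver and visceral endoderm, went from 12.06 ± 0.23 to 11.35 ± 0.13 (-0.71, adjusted p = 0.0149). The Hnf4a call was lost without wild type replicate 1 or Norrin replicate 2. At E8.5 limma called 0 of the 64 partner genes, with 8 at an unadjusted p under 0.05 and 0 with the block. Over all genes it called 0.077%, with 7.22% at an unadjusted p under 0.05 and 1.41% with the block.

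Some cell type markers also differed between the genotypes at E10.5, in either direction. Of 15 visceral endoderm markers 4 fell and 0 rose, and their median level was 13.29 to 13.50 in wild type pools and 12.65 to 12.81 in Norrin pools. Of 9 erythroid markers 5 fell, with median levels of 10.37 to 11.69 and 9.31 to 9.76. Of 9 parietal endoderm markers 4 rose, with 9.71 to 10.77 and 11.02 to 11.69. With the block these counts were 9, 8 and 7, and without Norrin E10.5 replicate 2 they were 3, 4 and 4. Of all genes limma called 2.22% lower and 1.85% higher at E10.5, and 6.8% and 6.39% with the block. Without that array 3.19% were called (1.75% lower), and 14.0% had an unadjusted p under 0.05 with all arrays. Over 6 fits with 1 array left out, Apoa1, Apom, Klf1, Col4a2, Pth1r and Plat kept their call in all 6. Hbb-bh1 kept it in 5, Apoa4 and Hnf4a in 4, Alas2 in 3, Hba-x in 2, and Tal1 and Col4a1 in 1. At the E10.5 floor lay 0 markers of these lists. Of 7 mesenchyme markers 1 rose (Pdgfra, by 1.89; 3 with the block), with median levels of 12.71 to 13.20 in wild type and 13.27 to 13.39 in Norrin pools. Of 5 decidua markers 1 rose (Wnt4; 3 with the block), with 7.55 to 8.16 and 8.23 to 9.01. The Wnt4 call held in 1 of 6 fits with 1 array left out. The decidua marker Prl8a2 went from 7.41 ± 0.38 (SD, n = 3) to 9.10 ± 1.62 (effect 1.70, limma adjusted p = 0.26). Without Norrin replicate 2 its effect was 2.63 (adjusted p = 0.0139), and that of Wnt4 was 0.92 (0.095). Fits without that array thus keep the Norrin pools with the higher Prl8a2 readings. Of 10 endothelial markers 1 fell (Plvap), where the block called 2 higher and 1 lower, with 8.61 to 9.21 and 8.59 to 9.33. Of 9 macrophage markers 1 fell (Fcgr3), also with the block, with 7.81 to 8.33 and 7.46 to 8.16. Of 5 trophoblast and 7 neural markers limma called 0 (1 each at an unadjusted p under 0.05 and 1 each with the block); 3 trophoblast and 6 neural markers lay at the floor in wild type. At E8.5, 1 of the 15 visceral endoderm markers fell (Apoa4, a call lost in each of 6 fits with 1 array left out) and 5 with the block, with median levels of 13.11 to 13.24 and 12.61 to 13.06. Of all genes 0.022% were called lower at E8.5, and 0.61% with the block. The part of these markers in the carrier results was not tested.

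At E8.5 limma called 1 member, and the signs of the other differences are a description only. Of the 60, 53 had an effect below 0 (88.3%, against 53.9% of all genes), with a median of -0.11 against -0.02. Among members at the floor 25 of 26 were below 0, where 73.5% of all floor genes were; above it 28 of 34 were, against 40.4% of all genes above the floor. With the 12 arrays quantile-normalized together 44 of 60 were below 0, against 50.8% of all genes. By limma 8 had an unadjusted p under 0.05, 7 of them lower, where 7.22% of all genes had this (3.91% lower, 3.31% higher). The groups did not overlap for 10, 8 lower and 2 higher, where 11.9% of all genes had this (6.02% lower, 5.89% higher).

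Between stages, carriers rose and fell in both genotypes. Each stage seems to have had its own RMA run, as judged from the values, so stage and run cannot be told apart. In wild type 26 members were called, 17 higher and 9 lower at E10.5, where 32.5% of all genes were (25.4% higher, 7.12% lower). Centred on each array's median the split was 10 higher and 23 lower (38.8% of all genes, 13.5% and 25.4%), and with the arrays quantile-normalized together 10 and 19 (36.1%, 16.0% and 20.1%). The median of all genes moved by 0.14 in wild type and 0.15 in Norrin as deposited, and by -0.14 in each when centred. Under all 3 scalings 10 members were higher (13.2% of all genes) and 9 lower (7.05%). In Norrin 26 were called, 20 higher and 6 lower (37.9%, 28.2% and 9.69%), and under all 3 scalings 11 were higher (13.4%) and 6 lower (9.53%). Centred, the Norrin split was 12 higher and 22 lower (42.3%, 14.8% and 27.5%), and quantile-normalized 11 and 17 (37.8%, 16.9% and 20.9%).

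The stage contrasts share their E10.5 and E8.5 arrays with the Norrin contrasts, so the values stand side by side only. Fold bounds between stages hold for the deposited scale alone, since each sets an E10.5 mean against the E8.5 floor. They were not taken under the other scalings. Centred on each array's median, the wild type rises of Slc16a7 and Slc22a8 were 4.78 and 2.03. Slc16a7 rose from under the floor to 9.05 in wild type (log2 difference of readings 5.06, adjusted p = 1.18e-08), at least 4.10-fold over the floor of E8.5. In Norrin its readings differed by 2.59 (1.61e-06) with both means, 3.89 and 6.48, under the floor. Both differences were called under all 3 scalings. Slc22a8 rose by 2.31 in wild type (0.000293), from a mean under the floor and so at least 3.86-fold, and Slc22a6 by 1.28 (0.00181), both under all 3 scalings. In Norrin the differences were 0.92 for Slc22a8 (0.0447, both means under the floor and not called under all 3 scalings) and 0.12 for Slc22a6 (0.734). Slc22a2 and Slc47a1 rose by 1.70 and 2.25 in wild type and by 2.32 and 1.79 in Norrin, under all 3 scalings; their Norrin means at E8.5 lay under the floor, which makes these rises at least 3.58-fold and 2.05-fold. Slc16a1 fell by 1.14 in wild type (0.00161) and differed by 0.01 in Norrin (0.976).

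Other stage changes were called in both genotypes. Slco2a1 rose by 1.496 in wild type and 1.99 in Norrin, and Slc22a5 by 0.95 and 0.77. Slc13a4 fell by 1.503 and 2.07, Slco3a1 by 1.39 and 1.70, and Slc16a10 by 0.76 and 0.69. All 5 held under the 3 scalings. Slc16a12, a creatine carrier, went from 5.14 ± 0.74 (SD, n = 3) to 7.46 ± 0.13 in wild type and from 3.82 ± 0.18 to 7.46 ± 0.67 in Norrin. Both went from under the floor to just above it, at least 1.36-fold on the deposited scale. The wild type difference of its readings was 2.32 as deposited and 2.04 when centred.

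**Figure D4:**
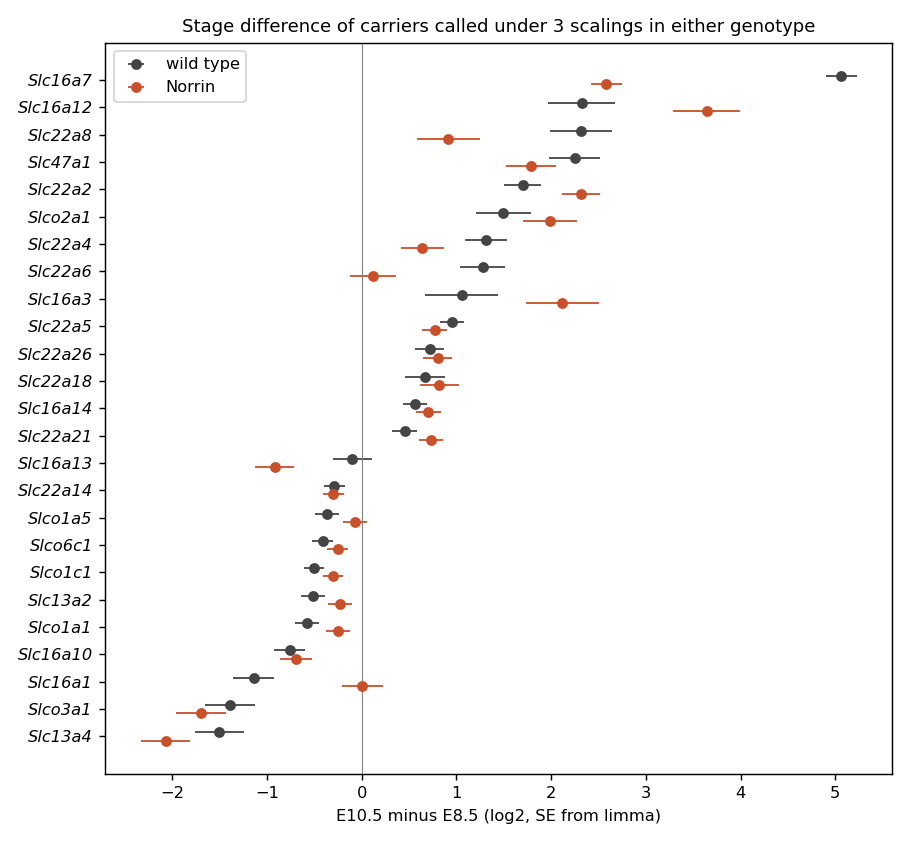
E10.5 minus E8.5 log2 difference, with SE from limma, of the carriers called under all 3 scalings in a genotype; wild type and Norrin are marked apart. Slc16a7 has the widest difference of readings in wild type (5.06), from under the floor, and Slc13a4 falls in both genotypes (by 1.503 and 2.07).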

How the data were processed

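The 12 arrays measured total RNA of pooled yolk sacs (Trizol and RNeasy, biotin label, per the labels' protocols). The authors deposited log2 values, for which the submitters' processing notes name RMA with no version: 45101 probe sets on 12 arrays, with 0 columns of other samples. Of the probe sets 34945 map to 1 gene, 932 to several and 9211 are unnamed here, with 64 controls among them; 34741 matched the RefSeq gene table. Pairs of arrays within a stage share identical values (26 to 93 in 30 pairs, and 0 in the 36 pairs across stages). From this each stage was taken to have had its own RMA run.

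The test was limma 3.58.1 in R 4.3.3 (Python 3.11.15 for tables), with 1 mean per group over 12 arrays. It had 8 residual and 4.17 prior degrees of freedom and was two-sided, with Benjamini-Hochberg over 18193 genes. Adjusted p values of probe sets other than the chosen one come from a separate fit, adjusted over the 34945 probe sets that map to 1 gene. The script was tested on simulated data. Arrays have no read depth; their number limits the precision. Pools are samples of embryos, and no litter is given.

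Same-numbered pools deviated together (r = 0.726, 0.318 and 0.730 at E8.5, and 0.506, 0.209 and 0.219 at E10.5). Pools of different numbers gave -0.721 to 0.296 at E8.5 and -0.347 to 0.156 at E10.5. At each stage the lowest same-numbered r lay near the highest of the others. The number was fitted as a block within the stage. This pairing is an assumption drawn from the same values that the block fits tested. Named members passed a threshold, had one of up to 4 highest readings of their family (a choice for naming, since probe sets cannot be ranked by abundance), or had an unadjusted p under 0.05 above the floor (28 of 60); the other 32 are given by counts, or singled out after their values were seen, as were Slc16a11, Slc16a12, Slc22a4 and Slco1b2. Where the lower group lay at the floor, a fold is a bound from the other group's mean to the floor. A higher floor would give a smaller bound. The members and lists were chosen with earlier results of these data known. Alternatives were scaling, filter, probe set, spread, block and arrays left out; fitting each probe set on its own was chosen after seeing the data.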

Additional observations from a re-analysis of the deposited data

Results flagged for a closer look

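The Norrin effect on Slc16a7 differed between the stages. At E8.5 all 6 arrays lay at the floor (3.72 to 4.03), and at E10.5 the 3 Norrin pools (6.31 to 6.68) lay below the 3 wild type pools (8.85 to 9.44). The difference of the effects, E10.5 minus E8.5, was -2.48 (limma, SE 0.23, adjusted p = 0.00145). Since Slc16a7 lay at the floor in both genotypes at E8.5, no lower level could be read there.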

How the results depend on the processing

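At E8.5 limma called 1 member; the count was 2 with the replicate block within the stage, 18 (all lower) with array weights, a setting that called 28.3% of all genes (14.9% lower), 0 with the 6 arrays of the stage alone, and 0 to 2 with 1 array left out, where 0.0055% to 0.104% of all genes were called (0 without wild type replicate 1 or Norrin replicate 2, 2 without wild type replicate 2). At E10.5 it called 6; the count was 14 with the block, 13 with array weights (12.7% of all genes) and 6 to 7 with 1 array left out (1.94% to 3.19%). Limma called 7 with the 12 arrays quantile-normalized together (5.19% of all genes). It called 7 of 39 tested when genes under the floor were left out (5.92%), and 8 on the mean of a gene's probe sets (4.34%). In the test of the difference of effects it called 1; the count was 4 with the block, 10 with array weights (15% of all genes) and 1 to 2 with 1 array left out (0.0275% to 0.198%; 2 without wild type E8.5 replicate 3). Between stages in wild type it called 26. The count was 16 of 39 tested when genes under the floor were left out (27.7% of all genes tested there). With 1 array left out it was 19 to 27 (23.7% to 34.5% of all genes). In Norrin limma called 26, and 19 to 24 with 1 array left out (28.8% to 36.2% of all genes). With array weights the count was 39 in each genotype (59.3% of all genes in wild type and 64.0% in Norrin). The within-stage block gives no value for the stage contrasts, since each block lies in 1 stage. With 1 block number across both stages the counts were 28 in wild type and 25 in Norrin (33.9% and 39.4% of all genes). The block changed no other Norrin call of a member than those given with the results. No named effect with an unadjusted p under 0.05 changed sign in any setting run; of 35 named effects above it, 16 did. With the floor at the percentile 90 (6.76 at E8.5, 6.92 at E10.5) 36 and 38 members lay above it, and at the percentile 99 (7.94 and 7.89) 21 and 27. The fold bounds were not taken again at these floors, and each would be smaller at the percentile 99. There the Norrin E10.5 mean of Slc22a6 (7.225) would also lie under the floor, so its fall would become a bound. The cause of the shifts in the counts was not tested.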
